A study of Homo sapiens with 6 samples.

Results

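The epidermal differentiation complex is a stretch of human chromosome 1 that holds the genes of the cornified envelope together with most genes of the S100 family. Its members were taken as the protein-coding genes that lie wholly between positions 151950000 and 153700000 of chromosome 1 (GRCh38), by the gene coordinates of the count tables and the GENCODE biotype of each Ensembl identifier. This gave 67 genes of the 58884 counted. They comprised 16 *S100A* genes, 7 genes of S100-fused type proteins, 19 late cornified envelope (LCE) genes, 11 small proline-rich (SPRR) genes, 8 other envelope or cluster genes, 2 peptidoglycan recognition genes, and 4 unrelated genes at its high-coordinate end, *CHTOP*, *SNAPIN*, *ILF2* and *NPR1*. The nearest counted protein-coding genes outside it were *THEM4*, at 22.0 ± 1.70 CPM (counts scaled to a common library size) in control and 17.9 ± 0.931 in DAPT-treated cells (SD, n = 3 each), and *INTS3*, at 125.7 ± 1.33 and 142.1 ± 6.48 CPM. At the inner edges lay *S100A10*, among the most abundant genes of the line, and *NPR1*, with 0 to 2 reads per library.

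In stratified epithelia, keratinocytes that leave the basal layer build the cornified envelope, a shell of proteins cross-linked by transglutaminases beneath the plasma membrane. Involucrin is laid down early, loricrin, the SPRR and the LCE proteins reinforce it, and filaggrin bundles the keratin filaments inside. S100 proteins are small calcium-binding dimers that act within the cell, often on annexins, and some of them are released as alarm or antimicrobial proteins. In keratinocytes, Notch signalling is known as a signal that drives cells out of the basal layer.

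HSC-4 is an established cell line from a human oral squamous cell carcinoma. RNA was sequenced from 3 control and 3 DAPT-treated libraries, the latter after 24 h with 50 μM DAPT, an inhibitor of γ-secretase, the protease that releases the active domain of Notch receptors. The study describes the controls as given the vehicle DMSO, but the deposited count columns carry the letters GM for them, unexplained, so an effect of the vehicle and of DAPT cannot be told apart here. All libraries come from 1 cell line at 1 dose and 1 time, and the labels do not say whether replicates were separate cultures, so the p-values measure the spread between these libraries, which may be technical.

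Total counts lay between 12276313 and 16317672 per library, at which 3 reads, taken as the smallest readable signal, equal 0.184 to 0.244 CPM. This floor covers counting error only. The Notch target genes *HES1*, *HEY1*, *HES2* and *HES4* were lower with DAPT by 0.77 to 2.45 on the log2 scale. Control replicate 1 stood apart from the other libraries. Its 6 fibroblast markers summed to 552.5 CPM, against 57.2 to 58.3 CPM in the other controls and 50.0 to 55.2 CPM with DAPT. All 6 were detected in it, as they were in the other controls and in DAPT replicate 3. The collagen gene *COL1A2* was at 215 CPM in that library and at 2.02 CPM or less in the others, while *COL1A1* was at 48.3 to 54.0 CPM in the others. The 6 squamous epithelial markers were all detected in the controls, and in the DAPT libraries all but *KRT14* in replicate 2, and summed to 4357 to 4482 CPM in control and 2682 to 2824 CPM in DAPT-treated cells. The defining keratin *KRT5* was at 2701 ± 61.9 and 1315 ± 43.4 CPM (n = 3 each), while *KRT14* was at 3.54 CPM or less. The list did not move as 1, since 4 of its genes were called lower and 2, *CDH1* and *EPCAM*, higher, both at a log2 fold change of 0.27 (edgeR adjusted p = 1.386e-04 and 1.192e-04). Of all tested genes, 18.0% were called lower and 17.2% higher. The leukocyte list summed to 10.02 to 15.3 CPM, most of it *CD14*, with *MPO* at 0 throughout and *PTPRC* at 0 to 2 reads. The melanocyte list summed to 1.17 to 2.96 CPM with *MLANA* and *TYR* at 0, and the endothelial list to 0.994 to 1.68 CPM in control and 2.41 to 2.92 CPM with DAPT. Its gene *CDH5* was called higher, at 0.328 ± 0.171 and 1.81 ± 0.485 CPM (n = 3 each, edgeR adjusted p = 4.931e-05). The part of these markers in the results was not tested, and results that rest on control replicate 1 are given with and without it.

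Many promoters of the complex share letters near the start, in genes that the line expressed and in genes that it did not. RefSeq promoters (GRCh38.p14) matched 63 of the 67 genes, 72 promoters in all. *CRCT1*, *LCE1B*, *SPRR2D* and *SPRR2E* were not matched. The letters TATAAA, searched on the gene's own strand, occurred in 33 of the 72 windows of 250 bases before to 50 after the start (45.8%), against 7.33% of the 35116 promoters in the table, and 27 of the 33 began 28 to 33 bases before the start. The AP-1 letters TGANTCA, searched on both strands, occurred in 20 (27.8%, against 7.71%). The grainyhead letters AACCNGTT occurred in 7 (9.72%, against 1.73%), and GTGGGAA, the core read by the Notch partner CSL, in 9 (12.5%, against 6.25%), both searched on both strands. The 7 grainyhead windows include those of *SNAPIN* and *ILF2*, unrelated genes at the high-coordinate end. The 2 windows of *SNAPIN* overlap and hold the same match, so the share for the complex itself is lower. These shares describe letters only and do not show binding. The following are the 150 bases before the start of *IVL* (chr1:152908396-152908545, plus strand), *SPRR1A* (chr1:152983931-152984080, plus), *SPRR1B* (chr1:153031053-153031202, plus), *S100A9* (chr1:153357704-153357853, plus) and *S100A2* (chr1:153565845-153565994, minus, the first of its 2 promoters). They are shown because they span the range from genes near the floor to genes among the most abundant, and capitals mark the AP-1 and TATAAA letters.
IVL: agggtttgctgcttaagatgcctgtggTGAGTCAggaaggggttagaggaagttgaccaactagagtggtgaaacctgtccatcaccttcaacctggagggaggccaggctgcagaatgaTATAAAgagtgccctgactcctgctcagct
SPRR1A: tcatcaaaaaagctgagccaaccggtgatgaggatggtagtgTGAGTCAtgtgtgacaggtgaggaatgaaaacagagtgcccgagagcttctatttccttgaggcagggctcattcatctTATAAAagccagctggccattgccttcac
SPRR1B: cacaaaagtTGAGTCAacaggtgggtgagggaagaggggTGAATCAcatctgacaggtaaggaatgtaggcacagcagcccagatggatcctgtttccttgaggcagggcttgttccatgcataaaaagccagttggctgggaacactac
S100A9: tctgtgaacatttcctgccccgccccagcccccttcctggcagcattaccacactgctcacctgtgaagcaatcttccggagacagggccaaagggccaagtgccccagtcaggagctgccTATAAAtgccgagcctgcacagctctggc
S100A2: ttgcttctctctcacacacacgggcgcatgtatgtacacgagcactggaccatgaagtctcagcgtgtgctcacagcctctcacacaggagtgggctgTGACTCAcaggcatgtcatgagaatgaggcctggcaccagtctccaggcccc
*IVL* and *SPRR1A* carry 1 AP-1 match and 1 TATAAA each, *SPRR1B* carries 2 AP-1 matches, *S100A9* carries TATAAA alone and *S100A2* an AP-1 match alone, and no match overlaps another. In the wider windows TATAAA stood in 8 of 28 promoters of the genes that passed the low-count filter (28.6%) and in 25 of 44 of those that did not (56.8%). Overlapping windows of *S100A8* hold the same TATAAA, so 1 match is counted more than once in the 8 and in the 33 of all members. AP-1 letters stood in 6 of 28 (21.4%) and 14 of 44 (31.8%). GTGGGAA stood in 1 of the 18 promoters of the genes called lower with DAPT (5.56%).

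Most of the complex was not expressed to a level that could be tested. Only 21 of the 67 genes passed the filter on low counts, 23 had no read in any of the 6 libraries, and 23 had reads but too few. For 42 genes no library held more than 3 reads. By other definitions, 20 genes had a mean of at least 1 CPM and 23 had at least 3 counts in every library of a group. A gene with 0 reads in all libraries had 0 of 84242376 counts, which allows up to 0.0356 CPM. The expressed genes lay at the ends of the interval. The 4 genes from *S100A10* to *TCHH* passed the filter, as did the 10 from *S100A4* to *ILF2*. Between *TCHH* and *S100A9* lay 45 genes over 1195 kb, of which 40 had at most 3 reads in every library, and only *SPRR1B* and *PGLYRP4* passed. The 33 genes from *RPTN* to *SPRR3*, over 850 kb, had at most 10 reads in any library.

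**Figure D1:**
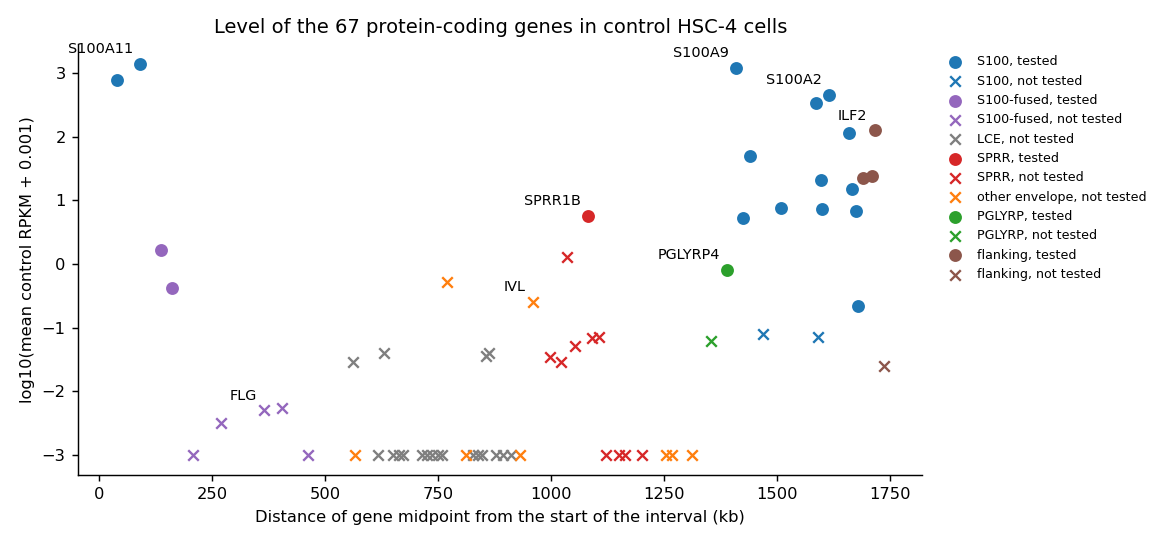
Mean level of the 67 genes in the 3 control libraries, as log10(RPKM + 0.001), against the distance of each gene's midpoint from the start of the interval in kb. Circles passed the low-count filter and crosses did not, colours mark families, and points at −3 had no read in control cells. The S100 genes form high groups at both ends, and of the 45 genes between *TCHH* and *S100A9* the highest are *SPRR1B* at 5.69, *SPRR1A* at 1.29 and *PGLYRP4* at 0.80 RPKM.

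Involucrin, loricrin, profilaggrin and the LCE genes were at or near the floor in both groups. *IVL*, the gene of involucrin, had 7, 6 and 9 reads in the control and 5, 6 and 2 reads in the DAPT libraries. *LORICRIN*, which encodes the main protein of the epidermal envelope, and *CRNN*, which encodes cornulin of the oral and oesophageal lining, had 0 reads in every library. *FLG*, the gene of profilaggrin, had 0, 1 and 1 reads in control and 2, 0 and 1 reads in DAPT-treated cells. The reads of *IVL* overlapped between the groups, and no change of these genes was detectable at this depth. Of the 19 LCE genes, 14 had no read and the others at most 2 in any library. *SPRR3*, the esophagin gene of the mouth and oesophagus, had 0, 3 and 0 reads in control and 1, 3 and 0 with DAPT. *C1orf68*, of the same stretch, had 10, 7 and 4 reads in control against 3, 1 and 0 with DAPT, and did not pass the filter. With no filter it was called, at a log2 fold change of -2.29 (edgeR adjusted p = 0.01483), from 25 reads in all. The counts of the SPRR and LCE families and of *S100A7* and *S100A7A* are uncertain, since these genes have close copies and reads that map to several places were not counted.

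The S100 genes carried most reads of the complex, for example 59067 of 66475 in control replicate 1 and 40755 of 47407 in DAPT replicate 1. Per exonic length, as RPKM (CPM divided by the exonic length in kilobases) in control cells, *S100A11* was at 1402, *S100A9* at 1185, *S100A10* at 783.7, *S100A2* at 451.1 and *S100A6* at 342.2. These ranked 15, 18, 23, 44 and 70 among the 58884 genes. Then followed *ILF2* at 125.5, *S100A16* at 114.1 and *S100A8* at 50.3 RPKM, and the envelope gene with the highest level, *SPRR1B*, stood at 5.69 RPKM. The 5 most abundant S100 genes together took 81.5 to 81.8% of the reads of the complex in the control and 78.0 to 79.5% in the DAPT libraries. *S100A5* had at most 2 reads in any library, and *S100A1*, the form known from heart muscle, was at 0.249 to 0.911 CPM.

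With DAPT, the complex took a smaller share of the counted reads, most of which came from its S100 genes. All members summed to 4140, 4264 and 4172 CPM in the control libraries and 3079, 3266 and 3108 CPM in the DAPT libraries. The groups did not overlap, and the mean went from 4192 ± 64.4 to 3151 ± 100.2 CPM (SD, n = 3 each), a change of -24.8%, or -25.3% without control replicate 1. In these bulk libraries, fewer cells of a type and less RNA per cell cannot be told apart. The 16 S100 genes summed to 3728 ± 62.6 and 2725 ± 97.1 CPM (-26.9%, or -27.4% without control replicate 1), and the 4 flanking genes to 447.6 ± 1.90 and 415.6 ± 9.94 CPM (-7.15%). By gene, 14 of the 21 tested members were lower with DAPT at an adjusted p under 0.05 (edgeR, quasi-likelihood F test, Benjamini-Hochberg over the 15001 tested genes), none was higher, and 7 were not called. Of all tested genes, 35.2% were called, 18.0% lower and 17.2% higher. The median log2 fold change was -0.42 over the 21 and 0.01 over the 15001 genes. In 14 of the 21 every DAPT library was below every control library, which held for 22.7% of all tested genes, and in none was it above, against 23.6% (46.3% in either direction). These genes are a part of the 67, and *PGLYRP4* passed the filter through its control libraries. DESeq2 called 14 members lower as well. By scaling to library size alone, 11 members were called, all lower, and of all called genes 61.5% were higher, against 48.7% with TMM factors.

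**Figure D2:**
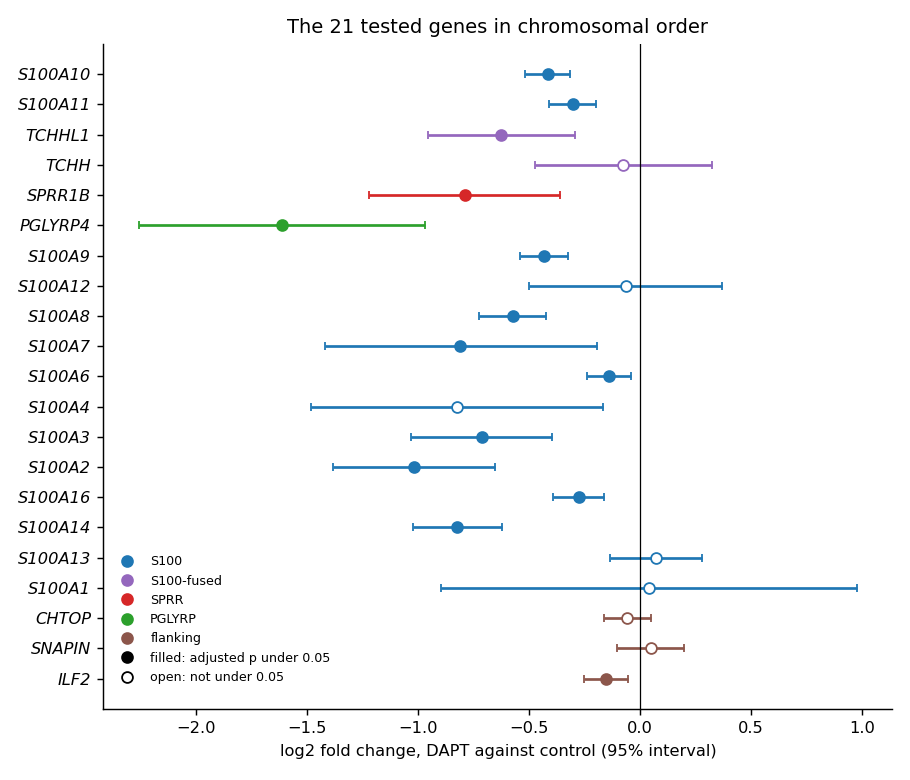
Log2 fold change, DAPT against control, of the 21 tested members in chromosomal order, with 95% intervals of the edgeR fit. Filled points have an adjusted p under 0.05 and open points do not, and colours mark families. The 14 filled points all lie left of 0, from -0.14 for *S100A6* to -1.61 for *PGLYRP4*.

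*S100A2* (ENSG00000196754, chr1:153561108-153567890, minus strand), a nuclear S100 protein known from basal keratinocytes and as a target of p63, had the largest change of the S100 genes. It was at 712.0, 722.0 and 686.5 CPM in the control libraries and at 276.8, 393.7 and 376.7 CPM in the DAPT libraries. Every DAPT library was far below the controls, and DAPT replicate 1 was the lowest. The mean went from 706.8 ± 18.3 to 349.1 ± 63.1 CPM, a log2 fold change of -1.02 (SE 0.142, 95% interval -1.38 to -0.65, adjusted p = 0.004359). With any 1 library left out, the adjusted p lay between 4.554e-11 and 0.03299. A change of at least 1.5-fold at an adjusted p under 0.05 was found for 7 members, all lower, against 4.71% of all tested genes that were lower by as much. A change of at least 2-fold was found for *S100A2* and *PGLYRP4*, against 2.37% in either direction. Both counts include *PGLYRP4*, which passed the filter through its control libraries, and without it they are 6 and 1.

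The calprotectin genes *S100A8* and *S100A9*, whose proteins pair into an antimicrobial, metal-binding complex, were lower together. *S100A9* (ENSG00000163220, chr1:153357854-153361023, plus strand) was at 646.4, 695.7 and 694.5 CPM in control and 470.1, 521.5 and 518.4 CPM in DAPT-treated cells. *S100A8* (ENSG00000143546, chr1:153390032-153391073, minus strand) was at 44.6, 46.1 and 43.7 CPM against 30.2, 32.0 and 28.1 CPM. In both genes every DAPT library was below every control library, which held for 22.7% of all tested genes. The log2 fold change was -0.43 for *S100A9* (SE 0.052, adjusted p = 1.158e-06) and -0.57 for *S100A8* (SE 0.073, adjusted p = 2.625e-06). Per length, *S100A9* was 22.5 to 24.7 times as high as *S100A8* in the control libraries and 24.2 to 28.7 times in the DAPT libraries, ranges that overlap. *S100A12*, the third calgranulin, was at 2.57 ± 0.361 and 2.44 ± 0.139 CPM, with a log2 fold change of -0.06 (95% interval -0.50 to 0.37) that was not called.

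The annexin-binding S100 genes were also lower, *S100A10* by about as much as *S100A9*, and *S100A11* and *S100A6* by less. *S100A10*, whose protein p11 forms a tetramer with annexin A2, was at 814.2, 809.1 and 756.0 CPM in control and 585.2, 619.6 and 579.9 CPM with DAPT. *S100A11*, which binds annexin A1, was at 887.9, 921.8 and 920.6 CPM against 771.5, 753.5 and 688.7 CPM. *S100A6*, or calcyclin, was at 316.8, 339.4 and 340.5 CPM against 297.8, 308.2 and 298.4 CPM. In each of the 3 every DAPT library was below every control library, which held for 22.7% of all tested genes. For *S100A6* the groups were close. The log2 fold changes were -0.42 for *S100A10* (SE 0.049, adjusted p = 9.411e-07), -0.30 for *S100A11* (SE 0.050, adjusted p = 7.151e-05) and -0.14 for *S100A6* (SE 0.048, adjusted p = 0.02814). The call of *S100A6* held in 1 of the 6 fits that left out a library, that without control replicate 1. When control replicate 2 or 3 or DAPT replicate 1, 2 or 3 was left out, its adjusted p was 0.108, 0.1085, 0.05856, 0.05075 and 0.1044, and with library size alone it was 0.135.

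Among the S100 genes of lower level, *S100A14* and *S100A3* had the clearest differences. *S100A14*, an epithelial S100 gene, was at 19.4, 19.3 and 18.5 CPM in control and 10.1, 10.5 and 11.8 CPM in DAPT-treated cells. *S100A3*, known from the hair cuticle, was at 5.61, 6.36 and 6.46 CPM against 3.83, 3.95 and 3.38 CPM. In both genes the replicates of a group lay close together and the groups were apart, with DAPT below control, as in 22.7% of all tested genes. The log2 fold change was -0.82 for *S100A14* (SE 0.097, adjusted p = 8.998e-07) and -0.71 for *S100A3* (SE 0.153, adjusted p = 9.963e-04). *S100A16*, next to *S100A14* on the chromosome, was lower by less, with a log2 fold change of -0.28 (adjusted p = 5.789e-04).

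*S100A7*, the gene of the antimicrobial protein psoriasin, was at 4.73, 3.39 and 2.98 CPM in control and 1.56, 3.44 and 1.46 CPM with DAPT. DAPT replicate 2 was as high as the controls, so the groups overlapped. It was called at a log2 fold change of -0.81 (SE 0.287, adjusted p = 0.04002), a call that was lost in 4 of the 6 fits with a library left out. The values were -0.58 (adjusted p = 0.1401) without control replicate 1, -0.88 (0.06669) without control replicate 2, -0.60 (0.1665) without DAPT replicate 1 and -0.60 (0.1454) without DAPT replicate 3. Its close copy *S100A7A* had 2, 5 and 7 reads in control and 13, 3 and 2 reads with DAPT and was not tested.

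*S100A4*, known from mesenchymal cells and motile tumour cells, was highest in the library with the fibroblast transcripts. It was at 27.5, 16.2 and 16.6 CPM in control and 9.74, 12.5 and 12.4 CPM with DAPT. All DAPT libraries were below the controls, and control replicate 1, with 552.5 CPM of fibroblast markers, lay apart from the other controls. With all libraries the log2 fold change was -0.82 (SE 0.262, adjusted p = 0.06167) and was not called. Without control replicate 1 it was -0.51 (adjusted p = 0.001016), past the threshold, and without control replicate 2 it was -0.96 (adjusted p = 0.04347). In the whole complex, 14 members were called, all lower, also without control replicate 1.

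**Figure D3:**
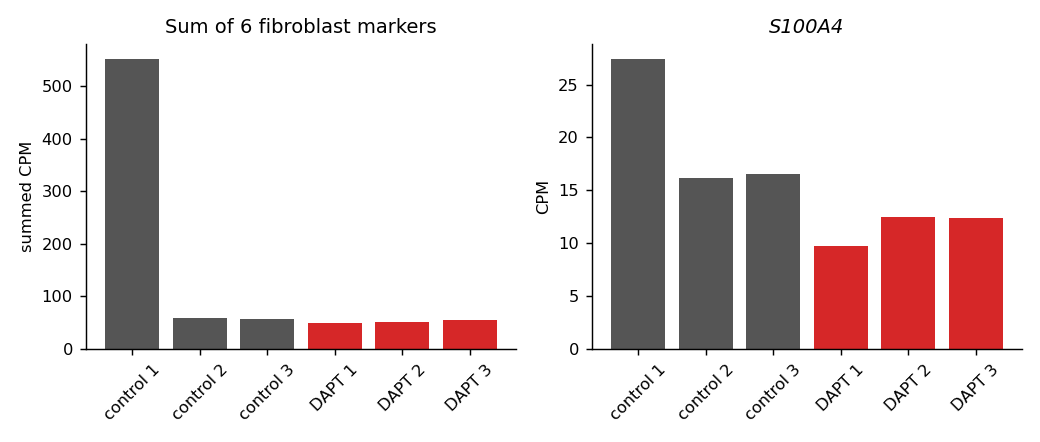
Summed CPM of 6 fibroblast markers (left) and CPM of *S100A4* (right) in each library, control in grey and DAPT in red. Control replicate 1 is the highest in both, at 552.5 and 27.5 CPM, and the other libraries lie between 50.0 and 58.3 summed CPM on the left.

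The remaining S100 genes that were tested were not called. *S100A13*, which takes part in the release of a fibroblast growth factor, had a log2 fold change of 0.07 (95% interval -0.13 to 0.28). Of its exonic bases, 24.2% are also covered by a gene on the same strand, and reads there were not counted. *S100A1*, near the filter's level, had a log2 fold change of 0.04 (95% interval -0.90 to 0.98), which leaves its direction unknown.

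Outside the S100 and flanking genes, 3 members were called, all lower, where 18.0% of all tested genes were called lower. *SPRR1B* (ENSG00000169469, chr1:153031203-153032900, plus strand), whose protein cornifin-B is a cross-linked envelope precursor, was at 3.05, 3.54 and 3.98 CPM in control and 2.21, 1.68 and 2.15 CPM with DAPT. *TCHHL1*, the trichohyalin-like member of the S100-fused group, was at 6.23, 6.43 and 5.63 CPM against 4.48, 3.14 and 4.22 CPM. *PGLYRP4* (ENSG00000163218, chr1:153330120-153348841, minus strand), a secreted protein that binds bacterial peptidoglycan, had 33, 23 and 21 reads in control and 11, 7 and 7 reads with DAPT. In all 3 genes the DAPT libraries were below the controls without overlap, which held for 22.7% of all tested genes. The 3 were picked by their calls, so their lack of overlap is no result of its own. In *TCHH*, the other tested member outside the S100 and flanking genes, the groups overlapped. The log2 fold change was -0.79 for *SPRR1B* (SE 0.207, adjusted p = 0.005077), -0.62 for *TCHHL1* (SE 0.160, adjusted p = 0.004312) and -1.61 for *PGLYRP4* (SE 0.310, adjusted p = 3.442e-04). *PGLYRP4* lay over the level of the filter, 0.726 CPM, in all control and in no DAPT libraries, so that it was tested through its control libraries alone. *TCHH*, the gene of trichohyalin from the hair root sheath, was at 2.92 ± 0.264 and 2.78 ± 0.219 CPM, with a log2 fold change of -0.07 (95% interval -0.47 to 0.33). *SPRR1A*, a near copy of *SPRR1B*, had 2, 7 and 5 reads in control and 4, 4 and 1 with DAPT.

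**Figure D4:**
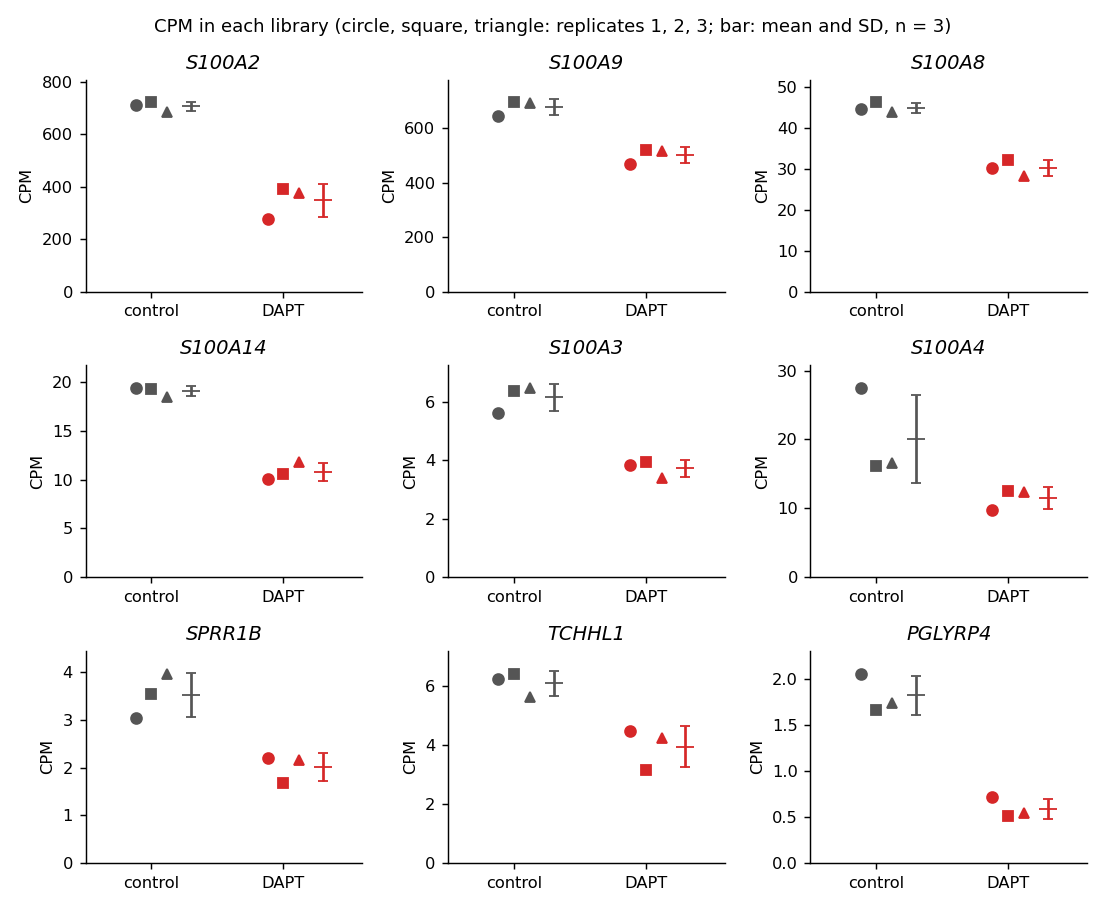
CPM of 9 members in each library, control in grey and DAPT in red, with the mean and SD of each group (n = 3) beside the points and axes that start at 0. The groups do not overlap in any of the 9, and control replicate 1 is apart from the other controls in *S100A4*. The 9 were chosen with their values known, so their lack of overlap is no result. *PGLYRP4* passed the filter through its control libraries alone, and *S100A7*, called but with groups that overlap, is not shown. Of all tested genes, 22.7% had every DAPT library below every control library.

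The flanking genes, which have no role in the envelope, changed little. *ILF2*, a double-stranded RNA binding factor, was at 283.8 ± 4.67 CPM in control and 255.4 ± 9.87 CPM with DAPT, a log2 fold change of -0.15 (SE 0.048, adjusted p = 0.01796). This call was lost without DAPT replicate 2 (adjusted p = 0.05037), without DAPT replicate 3 (0.1214) and with library size alone (0.08798). *CHTOP*, an mRNA export factor, and *SNAPIN*, a binding partner of the SNARE proteins, had log2 fold changes of -0.06 (95% interval -0.16 to 0.05) and 0.05 (95% interval -0.10 to 0.20) and were not called. Without the 4 flanking genes, 13 of the 18 tested members were called, all lower, against 18.0% of all tested genes called lower.

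Genes elsewhere in the genome that act with the complex did not move in 1 direction. Of 26 genes that cross-link, join or process the envelope, 18 were tested, 9 were lower, 3 were higher and 6 were not called (18.0% and 17.2% of all tested genes were lower and higher), with a median log2 fold change of -0.20. *PI3*, whose product elafin is a protease inhibitor cross-linked into the envelope, was at 9.90, 11.1 and 10.3 CPM in control and 2.92, 3.36 and 3.30 CPM with DAPT, a log2 fold change of -1.70 (adjusted p = 4.278e-09). *CASP14*, the caspase that helps to process filaggrin, and *LYPD3*, a surface protein of suprabasal keratinocytes, changed by -1.50 and -0.71 on the log2 scale (adjusted p = 3.05e-06 and 2.42e-06). *ABCA12*, the lipid transporter of the skin barrier, *PPL*, which encodes the plakin periplakin, and *SCEL*, which encodes sciellin, were higher by 0.90, 0.72 and 0.31 on the log2 scale (adjusted p = 3.069e-06, 1.227e-09 and 0.02468). Of the transglutaminase genes on the list, *TGM1* was lower, at 5.52 ± 1.47 CPM in control and 3.49 ± 0.535 CPM with DAPT (n = 3 each). Its log2 fold change was -0.63 (edgeR adjusted p = 0.01288). *TGM5* had at most 12 reads in any library and was not tested, and *TGM3*, a transglutaminase of the upper layers, had no read.

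Of 9 genes elsewhere that belong to the S100 family or bind its proteins, 4 were tested. *ANXA2*, the annexin that p11 binds, was at 2979 ± 45.9 CPM in control and 2393 ± 20.1 CPM with DAPT, a log2 fold change of -0.32 (SE 0.047, adjusted p = 1.774e-05). The other 3, *AHNAK*, *AGER* and *MYH9*, were not called, and *S100B* and *S100G* had no read. The median over the 4 was -0.01. *ANXA1*, the gene of the annexin that S100A11 binds, was counted with the envelope genes and is not among the 4. It was lower, at 883.1 ± 33.8 CPM in control and 784.9 ± 35.5 CPM with DAPT (log2 fold change -0.17, edgeR adjusted p = 0.01067).

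Of 15 transcription factors known to control epidermal genes, 14 were tested, 4 were lower, 2 were higher and 8 were not called, with a median of -0.02. The 6 called are a share near the 35.2% of all tested genes, so the count says nothing particular about these factors. *ZNF750*, a factor of terminal differentiation, was at 7.16, 7.37 and 7.21 CPM in control and 1.75, 1.39 and 1.77 CPM with DAPT. All DAPT libraries were far below the controls, with a log2 fold change of -2.14 (SE 0.175, adjusted p = 3.686e-09). *GRHL3*, a grainyhead factor, *TP63*, the master factor of stratified epithelia, and *FOSL1*, a subunit of AP-1, were at log2 fold changes of -1.15, -0.58 and -0.48 (adjusted p = 5.777e-04, 2.822e-09 and 1.993e-04). *KLF4*, a factor of barrier formation, was higher, at 12.9 ± 0.115 and 22.7 ± 0.779 CPM, with a log2 fold change of 0.81 (adjusted p = 2.168e-07), and *OVOL1* was higher by 0.26 (adjusted p = 0.02). Leaving out control replicate 1 or 2 or DAPT replicate 2 or 3 left 1 factor higher in place of 2.

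**Figure D5:**
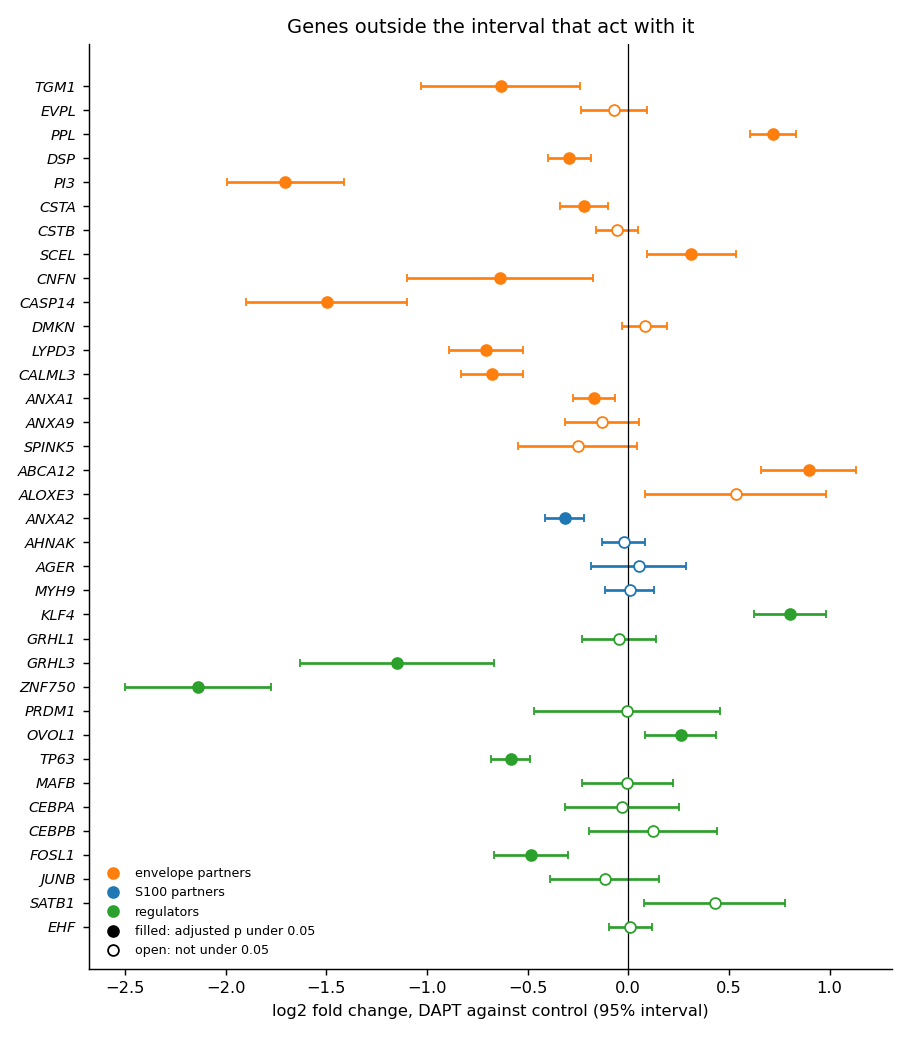
Log2 fold change, DAPT against control, with 95% intervals, of the 36 tested genes outside the interval: envelope partners, S100 partners and regulators. Filled points have an adjusted p under 0.05. Points lie on both sides of 0, with *ZNF750* at -2.14 and *PI3* at -1.70 farthest to the left and *ABCA12* at 0.90 and *KLF4* at 0.81 farthest to the right.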

How the data were processed

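HSC-4 cells were profiled by RNA-seq in 6 libraries. The authors trimmed the reads, aligned them to GRCh38 and counted reads overlapping the exons of Ensembl release 96 genes on the sense strand with featureCounts 1.6.3, and they deposited whole-number counts per gene without normalization. Reads that map to several places or fall on several genes were not counted under these settings. Groups came from the sample labels.

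Of 58884 identifiers, 58472 matched GENCODE release 44 for symbols and biotypes. Genes that passed edgeR's filter by group (minimum count 10), 15001 in all, were tested with edgeR 4.0.16 in R 4.3.3, using TMM factors (0.980 to 1.02), a robust quasi-likelihood fit and Benjamini-Hochberg adjustment over all of them. CPM values are TMM-scaled, and RPKM uses the deposited exonic length. SE and 95% intervals come from the fit and are not adjusted. The procedure was tested on simulated data.

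Values per library were given for members called with at least a 1.5-fold change, the 5 most abundant members, and *IVL*, *FLG*, *LORICRIN*, *S100A7*, *S100A8*, *S100A9*, *SPRR1B*, *SPRR3* and *CRNN*, and for *S100A4*, *SPRR1A*, *S100A7A* and *C1orf68*, which were added after their values were seen. Members outside the filter are given by reads. From the lists outside the interval, up to 6 called genes each were named, and *TGM1* and *ANXA1* were added after their values were seen. The genes, lists and motifs were chosen with earlier results of these data known. The alternatives were other scaling factors, filters and thresholds, DESeq2 1.42.0, limma-voom (limma 3.58.1), a fit that is not robust, a replicate block and each library left out in turn. Protein sequences were not used here.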

Additional observations from a re-analysis of the deposited data

How the results depend on the processing

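The 14 members called lower became 13 to 16 under the other filters, RLE or upper quartile factors, DESeq2, limma-voom and the fit that is not robust, 11 with library size alone or an adjusted p under 0.01, and 11 to 14 with a library left out. No setting called a member higher. With at least a 2-fold change, 2 members were called, 2 of them lower, 2 envelope partners (2 lower, 0 higher), 0 S100 partners (0 lower) and 2 regulators (2 lower, 0 higher). Regulators called higher were 1 with DESeq2, 1 with an adjusted p under 0.01 and 1 to 3 with a library left out. Of 355 single-gene values, 313 kept sign and side of the threshold and 5 changed sign, all of members not called. With a library left out, *S100A12* ran from -0.18 to 0.0282, *S100A13* from -0.0038 to 0.14 and *S100A1* from -0.40 to 0.34, with -2.91e-05 by DESeq2. *S100A7* was not called by DESeq2 (adjusted p = 0.05348), and *S100A4* was called with no filter, DESeq2, limma-voom, the fit that is not robust and the replicate block. Replicate numbers did not pair the libraries, since same-numbered deviations correlated at 0.0173, 0.0252 and 0.00382, and with the replicate block 15 members were called. Depth limits the 46 members below the filter, of which 1, *C1orf68*, was called with no filter, and 3 libraries a group limit the precision of the rest.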

Other observations

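The interval also holds genes without a protein product, among them 10 long noncoding RNA genes. *FLG-AS1*, on the strand opposite to *FLG*, was at 11.7, 10.3 and 10.3 CPM in control and 7.67, 8.19 and 8.30 CPM with DAPT, without overlap of the groups and with a log2 fold change of -0.42 (SE 0.114, edgeR adjusted p = 0.006314), while *FLG* had at most 2 reads. Counting used strand. The noncoding genes ENSG00000285867 and ENSG00000272030 had log2 fold changes of -0.69 (adjusted p = 0.05884) and 0.49 (adjusted p = 0.1519) and were not called. The other noncoding genes and pseudogenes of the interval had at most 13 reads in any library and were not tested. Just outside the interval, *THEM4* was lower (log2 fold change -0.30, adjusted p = 0.009859) and *INTS3* was higher (0.18, adjusted p = 0.00958).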
